A study of Homo sapiens with 36 samples.

Results

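The glycolysis and hypoxia response genes are 43 genes of glucose uptake, the glycolytic enzymes, lactate handling, the hypoxia-inducible factors (HIF) and their transcriptional targets. They were taken by symbol from the table of gene counts, where all 43 were found among 37549 symbols. The rule that picks them uses no measured value, but the list was chosen with earlier results of these data known. By role they comprise 2 glucose transporters, 10 genes of the hexose steps, 7 of the triose steps, 6 of pyruvate and lactate handling, 5 for HIF and its regulators and 13 other HIF targets. RNA of the B-cell leukaemia lines MEC1, JVM2 and EHEB was sequenced after exposure to vehicle (DMSO) or to 50 µM fludarabine, a purine analogue that stops DNA synthesis, 5 µM ibrutinib, an inhibitor of Bruton tyrosine kinase, or 10 µM idelalisib, an inhibitor of PI3K delta. Each of the 12 groups had 3 libraries, called the first, the second and the third in the order of the library numbers in the labels. Exposure lasted 48 h in MEC1, whose p53 is mutated, and 72 h in JVM2 and 96 h in EHEB, where p53 is wild-type, so that effects of the line and of its exposure time cannot be told apart. By these numbers the DMSO and fludarabine libraries form one series in each line and the ibrutinib and idelalisib libraries a later one, which holds no DMSO library. An effect of a kinase inhibitor against DMSO and an effect of the library series therefore cannot be told apart, whereas fludarabine against DMSO and idelalisib against ibrutinib compare libraries of one series. The labels speak of triplicates without saying that they were separate cultures. The study's methods give at least 3 independent experiments for all results but the glucuronidation assays, without naming these libraries. The p values measure the spread between these libraries, which may be technical. The question asked of the members is how the 4 treatments compared within each line.

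Glycolysis takes glucose in through facilitative transporters, traps it as glucose 6-phosphate by hexokinase, splits it into trioses by aldolase and oxidises these to pyruvate, which lactate dehydrogenase can reduce to lactate for export by monocarboxylate transporters. HIF is a transcription factor made of an oxygen-regulated alpha subunit (HIF1A or EPAS1) and a constant partner. Prolyl hydroxylases of the EGLN family mark the alpha subunit when oxygen is present, and VHL then directs it to degradation, so HIF activity is set mostly on the protein and is not read from the alpha subunit's mRNA. Many glycolytic genes are HIF targets and are also driven by MYC and by PI3K signalling, and in B cells antigen receptor signalling raises glucose use.

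Library totals ranged from 26590705 to 53538925 counts. Of the B-cell markers, MS4A1 stood at 77.4 to 358 CPM per library, CD79A at 69.1 to 584 and PAX5 at 284 to 598, whereas the T-cell markers CD3D and CD3G, the myeloid markers CD14, LYZ and FCGR3A, and all 4 erythroid markers stayed below 1 CPM in every library. The other listed T-cell and myeloid markers did not. TRAC, of the T-cell list, stood at 16.7 to 59.2 CPM per library. In EHEB, CD2 reached 12.1 CPM with fludarabine and CD3E 5.46 with DMSO. The myeloid markers CD68 and CSF1R exceeded 1 CPM in some libraries. The whole T-cell list (5 genes) summed to 16.7 to 59.5 CPM and the myeloid list (5) to 0.679 to 14.9. The fibroblast list (4, of which 1 was at 0 throughout) summed to 3.11 to 81.6 and the epithelial list (3) to 0.820 to 42.7. Markers moved with treatment too. CD79A in JVM2 stood at 279 to 302 CPM with DMSO and 69.1 to 83.8 with fludarabine, and MS4A1 in MEC1 at 109.7 to 121 with DMSO, 300.0 to 326 with ibrutinib and 286.4 to 358 with idelalisib. The myeloid sum was 3.22 to 5.55 CPM with DMSO and 9.76 to 14.9 with fludarabine in MEC1, and 0.701 to 2.13 and 7.07 to 12.5 in EHEB. The fibroblast sum was 5.49 to 7.66 CPM with DMSO and 16.1 to 18 with fludarabine in MEC1, but lower with fludarabine in JVM2 (22.2 to 26.5, DMSO 71.6 to 80.5) and in EHEB (3.11 to 4.78, DMSO 16.8 to 17.5). The part of these changes in the results was not tested. CPM is the count scaled to a common library total after TMM normalisation, which scales libraries on the bulk of their genes. The share of counts from mitochondrially encoded genes was 0.396 to 0.608% in the DMSO libraries of MEC1 and 0.682 to 1.06% in its treated libraries, 0.420 to 0.467% and 0.679 to 1.16% in JVM2, and 1.27 to 1.66% and 1.45 to 2.66% in EHEB, where idelalisib overlapped DMSO. This share moved with treatment beside all results on drugs below, and its part in them was not tested. The 43 members together held 2.37 to 2.49% of all counts in DMSO-treated MEC1, and in the vehicle libraries of JVM2 and EHEB 1.55 to 1.62% and 1.39 to 1.57%. The lowest shares were those of EHEB with idelalisib, 0.646 to 0.671%.

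HIF binds DNA at a short core, ACGTG, and promoter stretches of some members that hold it are shown for this reason. Of the 43 members, 37 matched an entry of RefSeq promoter windows (GRCh38.p14), and ACGTG or its reverse complement CACGT lay within 250 bases upstream of a start site in 21 of these 37 (56.8%), against 21.7% of all 27305 genes in the same table. The palindrome CACGTG, which holds both search strings and is also the E-box bound by MYC, BHLHE40 and their relatives, occurred in 24.3% of the members and 7.73% of all genes. These shares count a gene once any of its windows holds a match, so genes with more windows have more chances. Per window, the core lay in 36.9% of the 65 member windows and 18.5% of all 35116 windows. The palindrome lay in 13.8% and 6.34% of them. Members without a match included ENO1, LDHB, PFKFB4, HIF1A, EPAS1, ADM and P4HA2, and SLC2A3 and VEGFA had no entry. A match describes these letters and is no evidence of binding. The stretches below run 5′ to 3′ on the strand of the gene, with positions counted back from the start site, matches in capitals and no overlap with an annotated exon.
HK2, chr2:74834027-74834126, plus strand, bases −100 to −1: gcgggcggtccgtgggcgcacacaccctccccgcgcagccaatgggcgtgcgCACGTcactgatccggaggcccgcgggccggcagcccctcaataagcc
LDHA, chr11:18394463-18394559, plus strand, bases −100 to −4: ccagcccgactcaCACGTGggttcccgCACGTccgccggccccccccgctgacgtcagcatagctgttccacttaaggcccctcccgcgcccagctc
PGK1, chrX:78104036-78104135, plus strand, bases −212 to −113: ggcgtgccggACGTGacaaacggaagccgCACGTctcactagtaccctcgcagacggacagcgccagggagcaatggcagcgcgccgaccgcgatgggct
SLC16A3, chr17:82228942-82229041, plus strand, bases −100 to −1: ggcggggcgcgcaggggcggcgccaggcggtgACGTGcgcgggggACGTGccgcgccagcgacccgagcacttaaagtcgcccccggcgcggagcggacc
BNIP3, chr10:131981968-131982067, minus strand, bases −144 to −45: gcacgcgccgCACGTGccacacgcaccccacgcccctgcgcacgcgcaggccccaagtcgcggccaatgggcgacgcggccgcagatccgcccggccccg
ANKRD37, chr4:185396669-185396768, plus strand, bases −172 to −73: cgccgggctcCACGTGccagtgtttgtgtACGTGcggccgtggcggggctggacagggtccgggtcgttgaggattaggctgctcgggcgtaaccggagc
BHLHE40, chr3:4979253-4979352, plus strand, bases −184 to −85: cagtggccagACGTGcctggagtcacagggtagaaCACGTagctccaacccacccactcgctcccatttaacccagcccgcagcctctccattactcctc

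HK2, the inducible hexokinase, held 1 match in the stretch shown, and 2 palindromes upstream of another start site, not shown. LDHA, PGK1 and SLC16A3 held 2 matches each. In ANKRD37 and BHLHE40, 2 matches likewise stood close together, and BNIP3 held 1 palindrome.

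Without drug, GAPDH, ENO1, LDHA and most other abundant glycolytic enzymes were highest in MEC1. PKM had its highest mean in EHEB, but its libraries there overlapped those of MEC1 and the difference was not called. The 3 lines differed widely in the HIF subunit EPAS1, the hydroxylase EGLN3 and the stress gene NDRG1. The triose phosphate dehydrogenase GAPDH was the highest member per kilobase of union exon length in every line, at 2648 ± 105 CPM per kb in MEC1, 2217 ± 168 in JVM2 and 1814 ± 73.7 in EHEB (mean ± SD, n = 3). ENO1 (enolase) stood at 594 ± 21.8, 296 ± 5.53 and 350.2 ± 21.9 in the same order and LDHA at 195 ± 3.11, 103 ± 5.96 and 115 ± 0.862. The transporter SLC2A3 was nearly level, at 10.2 ± 0.283, 10.5 ± 0.664 and 11 ± 0.795 CPM per kb, and its 3 comparisons between lines were not called (adjusted p 0.179 to 0.603). Called at an adjusted p under 0.05 by the quasi-likelihood test of edgeR (Benjamini-Hochberg over all genes), 22 of 43 members were higher and 9 lower in MEC1 than in JVM2, where 30.1% and 33.7% of all genes tested were called in these directions. Against EHEB, MEC1 was higher in 25 and lower in 9 members (all genes 31.6% and 35.8%). EHEB was higher than JVM2 in 14 and lower in 20 (all genes 29.9% and 29.6%). The triose genes were higher in MEC1 in 6 of 7 cases against either line.

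HIF1A mRNA was lowest in MEC1 (28.3 ± 1.11 CPM per kb), higher in EHEB (40.4 ± 3.11) and highest in JVM2 (47.4 ± 0.583), and EHEB against JVM2 was the smallest step (log2 fold change −0.23 ± 0.06, adjusted p = 0.00966). After a log2 fold change, here and below, ± gives the standard error from the edgeR fit and not an SD between libraries. EPAS1, the other HIF alpha subunit, ran the opposite way between MEC1 and EHEB, with 1603, 1772 and 1584 counts in the DMSO libraries of MEC1, 146, 221 and 206 in JVM2 and 3, 0 and 6 in EHEB. EGLN3, a hydroxylase that HIF itself induces, had 2607, 3199 and 2510 counts in EHEB, 82, 108 and 98 in JVM2 and 4, 2 and 1 in MEC1. NDRG1, a gene induced by hypoxia and other stresses, had 72.6, 76.7 and 73.8 CPM in EHEB, 7.21, 8.45 and 8.34 in JVM2 and 2.34, 3.80 and 3.48 in MEC1 (EHEB against JVM2 3.21 ± 0.16, adjusted p = 3.68e-07). CPM values set between lines come from a scaling of the 9 vehicle libraries together and differ slightly from those within a line below. Each of EPAS1, EGLN3 and NDRG1 thus separated the lines without overlap between their libraries. BNIP3, a mitophagy receptor, was 74.8 ± 1.14, 48.6 ± 2.15 and 23.8 ± 3.32 CPM per kb in MEC1, JVM2 and EHEB, and its same-named pseudogene entries held 5.15% as many counts as BNIP3 itself, so reads shared with those copies are uncertain. CA9, the membrane carbonic anhydrase that is among the strictest HIF targets, was at 4.55, 4.61 and 5.28 CPM in EHEB, 1.86, 3.30 and 1.53 in JVM2 and 0.0662, 0.219 and 0.254 in MEC1.

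**Figure D1:**
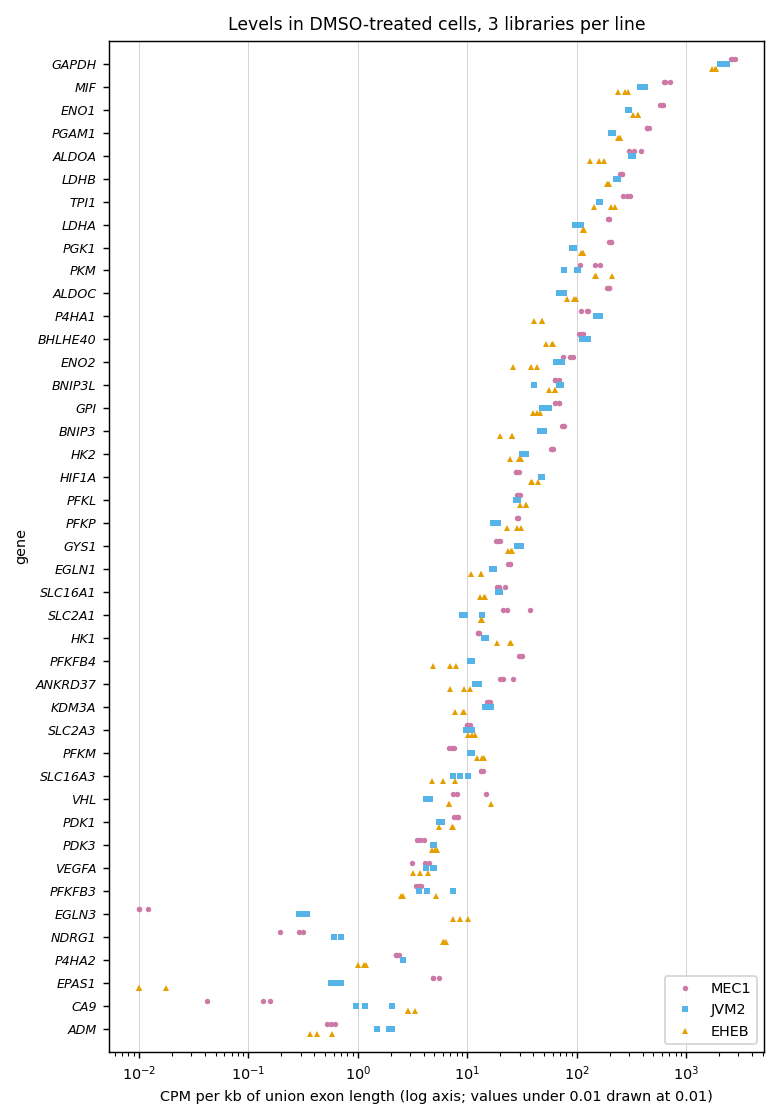
Levels of the 43 members in DMSO-treated cells, as CPM per kb of union exon length on a log axis, with 1 point per library and 3 libraries per line. GAPDH leads in every line, EPAS1 is near 0 in EHEB and EGLN3 near 0 in MEC1.

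Against DMSO, most members that changed fell, in every line and with every drug. Ibrutinib in JVM2 stands apart, since most members were not called there and the direction of the calls depended on the fit. In bulk RNA fewer cells of a kind and less RNA per cell cannot be told apart. Members named below were taken by a rule on the size of the change, and PDK1, PDK3, EGLN3, VHL, P4HA2, BNIP3, NDRG1, CA9 and the others given by values were singled out after their values were seen. Fludarabine lowered 31 of 42 tested members in MEC1 and raised 2 (all genes 22.7% lower and 21.2% higher), with a median log2 fold change of −0.72. In JVM2 it lowered 34 of 43 and raised 3 (all genes 23.3% and 23.9%), median −0.78. In EHEB it lowered 27 of 42 and raised 2 (all genes 19.2% and 18.4%), median −0.69. The share of members lowered thus stood well above that of all genes in each line. Ibrutinib separated the lines. It lowered 35 of 42 members in EHEB and raised 0 (all genes 11.2% and 8.50%), median −0.89. In MEC1 20 fell and 4 rose of 42 (all genes 23.9% and 23.7%), median −0.36. In JVM2 10 fell, 3 rose and 30 were not called (all genes 15.0% and 14.5%), median 0.04. A fit of the 6 libraries alone called 22 members there, 11 in each direction, and 8 were called without the third ibrutinib library. Idelalisib lowered 36 of 42 members in EHEB and raised 1 (all genes 18.2% and 15.1%), with the lowest median of the 9 comparisons, −1.19. In JVM2 it lowered 26 and raised 1 of 43 (all genes 22.6% and 21.6%), median −0.52, and in MEC1 27 and 3 of 42 (all genes 27.4% and 27.6%), median −0.56. The median of all genes tested lay between 0.00 and 0.08 over the 9 comparisons.

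The 3 drugs of a line share its DMSO libraries, so the 3 comparisons within a line are not independent. The low-count filter left out EGLN3 in MEC1 and EPAS1 in EHEB. With library totals in place of TMM, the median of all genes moved by −0.09 to 0.25 on the log2 scale, most in MEC1 with fludarabine, where the calls over all genes went from 48.4% to 74.1% higher. The members there were then 3 higher and 27 lower. Under the same scaling JVM2 with ibrutinib had 10 higher and 9 lower (all calls 49.1% to 62.2% higher), where the calls were thus no longer mostly lower. The split over all genes also moved by more than 10 percentage points in JVM2 with fludarabine (to 69.1% higher) and idelalisib (59.5%) and in EHEB with fludarabine, ibrutinib and idelalisib (61.8, 65.4 and 59.6%), where the main shares were 50.6, 48.8, 48.9, 43.1 and 45.3%. In these 5 the members lowered were 32, 25, 27, 33 and 36.

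Across the 9 comparisons, 29 members were called lower at least once and never higher (all genes 21.9%), 2 (SLC2A1 and VHL) higher and never lower (28.3%), and 12 in both directions (30.1%). Only 5 were lower in all 9, namely SLC2A3, ALDOA, GAPDH, LDHB and P4HA1, against 0.718% of all genes tested in the 3 lines. Fludarabine lowered 24 members in all 3 lines (all genes 8.05%) and raised 1, NDRG1 (5.10%). Ibrutinib lowered 6 in all 3 (3.16%) and idelalisib 18 (6.0%), and neither raised a member in all 3 (2.39% and 4.16%). Within EHEB 27 members fell with every drug (all genes 5.14%), against 17 in MEC1 (8.83%) and 8 in JVM2 (7.91%). No member rose with every drug in a line, against 7.46% of all genes in MEC1, 6.85% in JVM2, 3.14% in EHEB and 0.323% in all 9 comparisons.

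**Figure D2:**
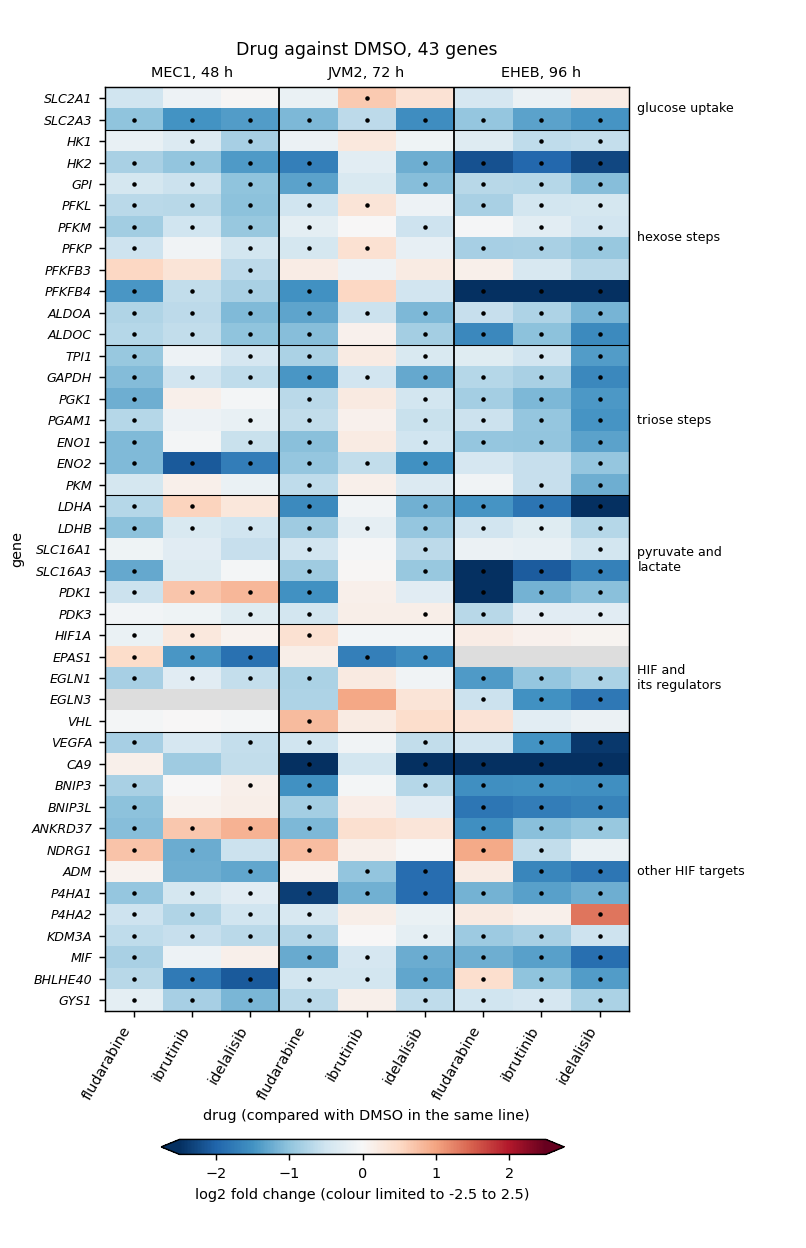
Log2 fold changes of the 43 members (rows, in role groups) for each drug against DMSO in each line (columns), with a dot where the change was called at an adjusted p under 0.05 and grey where the gene was not tested. Colour is limited to −2.5 to 2.5, EHEB is the bluest line, and JVM2 with ibrutinib is nearly white. Fitted values of CA9, whose treated libraries in EHEB are at or near 0, lie beyond the colour limit and are no bound.

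Of the 2 glucose transporters, SLC2A3, the high-affinity transporter of white blood cells and neurons, fell in all 9 comparisons, and SLC2A1, the ubiquitous form, was called in 1. SLC2A3 in MEC1 measured 80.0, 84.4 and 80.6 CPM in the DMSO libraries, against 41.5, 40.1 and 39.8 with fludarabine, 29.6, 28.2 and 29.7 with ibrutinib and 30.9, 31.3 and 31.3 with idelalisib. All treated SLC2A3 libraries of MEC1 lay below the vehicle range. The SLC2A3 log2 fold changes in MEC1 were −1.01 ± 0.05 with fludarabine (adjusted p = 1.95e-07), −1.49 ± 0.05 with ibrutinib (adjusted p = 1.86e-08) and −1.39 ± 0.05 with idelalisib (adjusted p = 2.03e-08). In JVM2, SLC2A3 stood at 73.1, 83.3 and 78.3 CPM in vehicle, 42.4, 37 and 28.9 with fludarabine, 53.5, 51.7 and 43.3 with ibrutinib and 30.4, 28.0 and 21.9 with idelalisib. SLC2A3 thus lay below every DMSO library of JVM2 with each drug. The SLC2A3 log2 fold changes in JVM2 were −1.12 ± 0.15 with fludarabine (adjusted p = 0.00012), −0.66 ± 0.15 with ibrutinib (adjusted p = 0.00742) and −1.55 ± 0.15 with idelalisib (adjusted p = 1.56e-05). EHEB gave SLC2A3 values of 75.9, 83.1 and 87.8 CPM with DMSO, 41.7, 42.8 and 42.4 with fludarabine, 30.5, 32.4 and 34.9 with ibrutinib and 29.9, 30.8 and 28.7 with idelalisib. No SLC2A3 library of EHEB with a drug reached the DMSO range, all being lower. The SLC2A3 log2 fold changes in EHEB were −0.96 ± 0.07 with fludarabine (adjusted p = 1.34e-06), −1.33 ± 0.07 with ibrutinib (adjusted p = 1.43e-06) and −1.47 ± 0.07 with idelalisib (adjusted p = 1.24e-07). SLC2A1 was called once, higher in JVM2 with ibrutinib (93, 65.1 and 60 CPM in vehicle and 123, 111 and 110.0 with the drug, log2 fold change 0.66, adjusted p = 0.047), a call lost with no filter on low counts, in a joint fit of all 36 libraries, and without any 1 of 5 of its 6 libraries. Its other 8 log2 fold changes lay between −0.50 and 0.36. The share of SLC2A1 in the sum of both transporters, per kb, was 50% ± 7.14 in vehicle and 78.6% ± 3.42 with idelalisib in JVM2, and 54.8% ± 1.82 and 78.6% ± 5.21 in EHEB (mean ± SD).

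At least 5 of the 10 genes of the hexose steps fell in each comparison but JVM2 with ibrutinib, and HK2 and PFKFB4 are given in full. Of the 10, fludarabine lowered 8, 8 and 7 (MEC1, JVM2 and EHEB), ibrutinib 8, 1 and 9 and idelalisib 10, 5 and 9. JVM2 with ibrutinib also raised 2, PFKL and PFKP, 2 of the 3 phosphofructokinase genes (0.32, adjusted p = 0.00134, and 0.38, adjusted p = 0.0185). The PFKP call was lost without the first or the third DMSO library or the first ibrutinib library. HK2 is the inducible hexokinase that commits glucose to glycolysis. HK2 in MEC1 measured 376, 400.2 and 388 CPM in the DMSO libraries, against 211, 233.6 and 216 with fludarabine, 204, 180.4 and 205 with ibrutinib and 137, 147 and 151 with idelalisib. All treated HK2 libraries of MEC1 lay below the vehicle range. The HK2 log2 fold changes in MEC1 were −0.82 ± 0.07 with fludarabine (adjusted p = 3.14e-06), −0.98 ± 0.07 with ibrutinib (adjusted p = 7.91e-07) and −1.42 ± 0.07 with idelalisib (adjusted p = 5.17e-08). In JVM2, HK2 stood at 192.2, 210.2 and 195 CPM in vehicle, 74.6, 66.7 and 41.7 with fludarabine, 186.3, 158 and 152 with ibrutinib and 109.7, 90.1 and 55.2 with idelalisib. HK2 thus lay below every DMSO library of JVM2 with each drug. The HK2 log2 fold changes in JVM2 were −1.71 ± 0.25 with fludarabine (adjusted p = 0.000195), −0.27 ± 0.24 with ibrutinib (adjusted p = 0.467, not called) and −1.23 ± 0.25 with idelalisib (adjusted p = 0.00197). EHEB gave HK2 values of 149.6, 179.8 and 190.05 CPM with DMSO, 38, 38 and 38.1 with fludarabine, 43.9, 43 and 47.2 with ibrutinib and 35.9, 37.4 and 34.7 with idelalisib. No HK2 library of EHEB with a drug reached the DMSO range, all being lower. The HK2 log2 fold changes in EHEB were −2.19 ± 0.08 with fludarabine (adjusted p = 2.04e-08), −1.95 ± 0.08 with ibrutinib (adjusted p = 3.76e-07) and −2.27 ± 0.09 with idelalisib (adjusted p = 3.23e-08). HK2 was thus called lower in all comparisons but JVM2 with ibrutinib.

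PFKFB4 makes and removes fructose 2,6-bisphosphate, the strongest activator of phosphofructokinase, and is a HIF target. PFKFB4 in MEC1 measured 199.7, 212 and 208 CPM in the DMSO libraries, against 71.6, 80.4 and 75.3 with fludarabine, 128, 137 and 139 with ibrutinib and 116, 121 and 117 with idelalisib. All treated PFKFB4 libraries of MEC1 lay below the vehicle range. The PFKFB4 log2 fold changes in MEC1 were −1.45 ± 0.06 with fludarabine (adjusted p = 6.46e-08), −0.62 ± 0.06 with ibrutinib (adjusted p = 7.24e-06) and −0.81 ± 0.06 with idelalisib (adjusted p = 6.26e-07). In JVM2, PFKFB4 stood at 68.5, 69.8 and 65.9 CPM in vehicle, 26.0, 27.1 and 18.6 with fludarabine, 109, 96.2 and 85.9 with ibrutinib and 66.6, 49.1 and 30.5 with idelalisib. For PFKFB4 in JVM2, libraries with fludarabine lay below DMSO, those with ibrutinib lay above DMSO and those with idelalisib overlapped it. The PFKFB4 log2 fold changes in JVM2 were −1.51 ± 0.24 with fludarabine (adjusted p = 0.000356), 0.51 ± 0.23 with ibrutinib (adjusted p = 0.131, not called) and −0.48 ± 0.23 with idelalisib (adjusted p = 0.119, not called). EHEB gave PFKFB4 values of 30.4, 43.4 and 49.5 CPM with DMSO, 7.35, 6.52 and 7.28 with fludarabine, 6.99, 6.52 and 8.14 with ibrutinib and 5.67, 5.96 and 6.04 with idelalisib. No PFKFB4 library of EHEB with a drug reached the DMSO range, all being lower. The PFKFB4 log2 fold changes in EHEB were −2.54 ± 0.16 with fludarabine (adjusted p = 5.22e-07), −2.51 ± 0.16 with ibrutinib (adjusted p = 4.97e-06) and −2.80 ± 0.17 with idelalisib (adjusted p = 4.89e-07). The EHEB level of PFKFB4 was 17.1% of that with DMSO after fludarabine, 17.6% after ibrutinib and 14.3% after idelalisib. The related PFKFB3 was called only in MEC1 with idelalisib (−0.65, adjusted p = 0.0238), a call lost without the second DMSO library or the second or the third idelalisib library. Its share of the pair, per kb, went from 33.7% ± 9.04 in DMSO-treated EHEB to 76.7% ± 2.05 with fludarabine.

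ALDOA, the main aldolase, which splits fructose 1,6-bisphosphate, fell in every comparison. ALDOA in MEC1 measured 1623, 1415 and 1264 CPM in the DMSO libraries, against 803, 960.2 and 802 with fludarabine, 947, 771 and 1025 with ibrutinib and 726, 696 and 567 with idelalisib. All treated ALDOA libraries of MEC1 lay below the vehicle range. The ALDOA log2 fold changes in MEC1 were −0.75 ± 0.13 with fludarabine (adjusted p = 0.000886), −0.65 ± 0.13 with ibrutinib (adjusted p = 0.00196) and −1.11 ± 0.13 with idelalisib (adjusted p = 3.15e-05). In JVM2, ALDOA stood at 1252, 1294 and 1227 CPM in vehicle, 523, 572 and 415 with fludarabine, 858, 855 and 879 with ibrutinib and 679, 621 and 433 with idelalisib. ALDOA thus lay below every DMSO library of JVM2 with each drug. The ALDOA log2 fold changes in JVM2 were −1.32 ± 0.15 with fludarabine (adjusted p = 3.11e-05), −0.54 ± 0.15 with ibrutinib (adjusted p = 0.0189) and −1.12 ± 0.15 with idelalisib (adjusted p = 0.00013). EHEB gave ALDOA values of 701, 627 and 524 CPM with DMSO, 415, 398 and 425 with fludarabine, 355, 347 and 381 with ibrutinib and 285, 279.5 and 263 with idelalisib. No ALDOA library of EHEB with a drug reached the DMSO range, all being lower. The ALDOA log2 fold changes in EHEB were −0.58 ± 0.09 with fludarabine (adjusted p = 0.000348), −0.77 ± 0.09 with ibrutinib (adjusted p = 0.000153) and −1.16 ± 0.09 with idelalisib (adjusted p = 2.90e-06). The ALDOA call in JVM2 with ibrutinib was lost when the second DMSO library or any 1 of the 3 ibrutinib libraries was left out (adjusted p 0.0528 to 0.0617). GPI, which isomerises glucose 6-phosphate, fell in 8 comparisons by 0.43 to 1.33 on the log2 scale, and was at −0.38 (adjusted p = 0.0669) in JVM2 with ibrutinib. HK1, the constitutive hexokinase, was called lower in 4 (MEC1 and EHEB with either kinase inhibitor, −0.34 to −0.84) and was not called with fludarabine. PFKM was lower in 7 of 9 comparisons and ALDOC, the second aldolase, in 8. PFKM overlaps SENP1 on the genome, and reads of the overlap cannot be assigned without strand.

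Most of the 7 genes from triose isomerase to pyruvate kinase fell with fludarabine and idelalisib, whereas ibrutinib lowered few of them outside EHEB. Among the 7, fludarabine lowered 6, 7 and 4 (MEC1, JVM2 and EHEB), ibrutinib 2, 2 and 6 and idelalisib 5, 6 and 7, and none was raised in any comparison. GAPDH makes the first ATP-yielding intermediate of the pathway. GAPDH in MEC1 measured 7310.4, 6919 and 6833 CPM in the DMSO libraries, against 3284, 3330.4 and 3358 with fludarabine, 5074, 4706 and 5261 with ibrutinib and 4558, 4444 and 4601 with idelalisib. All treated GAPDH libraries of MEC1 lay below the vehicle range. The GAPDH log2 fold changes in MEC1 were −1.08 ± 0.05 with fludarabine (adjusted p = 1.35e-07), −0.49 ± 0.05 with ibrutinib (adjusted p = 1.94e-05) and −0.63 ± 0.05 with idelalisib (adjusted p = 1.78e-06). In JVM2, GAPDH stood at 4989.5, 5609 and 5774 CPM in vehicle, 2132, 2143 and 1709.9 with fludarabine, 4251, 3952 and 3591 with ibrutinib and 2439.9, 2276 and 2063 with idelalisib. GAPDH thus lay below every DMSO library of JVM2 with each drug. The GAPDH log2 fold changes in JVM2 were −1.45 ± 0.10 with fludarabine (adjusted p = 7.64e-07), −0.47 ± 0.10 with ibrutinib (adjusted p = 0.00506) and −1.27 ± 0.10 with idelalisib (adjusted p = 3.16e-06). EHEB gave GAPDH values of 4275, 4662 and 4489 CPM with DMSO, 2823, 2649 and 2717 with fludarabine, 2536, 2297 and 2833 with ibrutinib and 1451, 1519 and 1433 with idelalisib. No GAPDH library of EHEB with a drug reached the DMSO range, all being lower. The GAPDH log2 fold changes in EHEB were −0.71 ± 0.07 with fludarabine (adjusted p = 1.13e-05), −0.81 ± 0.07 with ibrutinib (adjusted p = 2.41e-05) and −1.61 ± 0.07 with idelalisib (adjusted p = 6.79e-08). GAPDH in EHEB fell further with idelalisib than with ibrutinib (log2 fold change −0.80 between the drugs, adjusted p = 3.09e-05).

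ENO1, the general enolase, fell by nearly the same amount in the 3 lines with fludarabine. ENO1 in MEC1 measured 3533, 3299.6 and 3448 CPM in the DMSO libraries, against 1633, 1581 and 1589 with fludarabine, 3563, 3149.7 and 3249 with ibrutinib and 2448, 2205 and 2336 with idelalisib. ENO1 libraries of MEC1 with fludarabine and idelalisib lay below DMSO and those with ibrutinib overlapped it. The ENO1 log2 fold changes in MEC1 were −1.10 ± 0.06 with fludarabine (adjusted p = 2.30e-07), −0.05 ± 0.06 with ibrutinib (adjusted p = 0.56, not called) and −0.56 ± 0.06 with idelalisib (adjusted p = 1.27e-05). In JVM2, ENO1 stood at 1569.9, 1567 and 1613 CPM in vehicle, 808, 826 and 662 with fludarabine, 1995, 1739 and 1750.3 with ibrutinib and 1235, 1100.4 and 1006 with idelalisib. For ENO1 in JVM2, libraries with fludarabine and idelalisib lay below DMSO and those with ibrutinib lay above it. The ENO1 log2 fold changes in JVM2 were −1.05 ± 0.10 with fludarabine (adjusted p = 5.42e-06), 0.21 ± 0.09 with ibrutinib (adjusted p = 0.13, not called) and −0.51 ± 0.09 with idelalisib (adjusted p = 0.00126). EHEB gave ENO1 values of 1743, 1937 and 1963 CPM with DMSO, 971, 989 and 935 with fludarabine, 922, 855 and 1069 with ibrutinib and 736, 751 and 732 with idelalisib. No ENO1 library of EHEB with a drug reached the DMSO range, all being lower. The ENO1 log2 fold changes in EHEB were −0.96 ± 0.08 with fludarabine (adjusted p = 2.16e-06), −0.99 ± 0.08 with ibrutinib (adjusted p = 1.15e-05) and −1.35 ± 0.08 with idelalisib (adjusted p = 3.33e-07). ENO1 was thus not called with ibrutinib in MEC1 and JVM2 and lower in EHEB, and the ibrutinib effect differed between lines (line by drug interaction, adjusted p = 3.58e-06), whereas the fludarabine effect was not shown to differ (adjusted p = 0.845).

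ENO2, the neuronal enolase, had its largest falls with the kinase inhibitors in MEC1. ENO2 in MEC1 measured 349.5, 415 and 434 CPM in the DMSO libraries, against 103, 236 and 218 with fludarabine, 79.6, 125 and 76.2 with ibrutinib and 112, 126 and 123 with idelalisib. All treated ENO2 libraries of MEC1 lay below the vehicle range. The ENO2 log2 fold changes in MEC1 were −1.11 ± 0.27 with fludarabine (adjusted p = 0.0065), −2.09 ± 0.28 with ibrutinib (adjusted p = 9.76e-05) and −1.73 ± 0.28 with idelalisib (adjusted p = 0.000258). In JVM2, ENO2 stood at 284, 318 and 320.5 CPM in vehicle, 183, 152 and 133.6 with fludarabine, 215, 204 and 183.8 with ibrutinib and 127, 108 and 87.4 with idelalisib. ENO2 thus lay below every DMSO library of JVM2 with each drug. The ENO2 log2 fold changes in JVM2 were −0.98 ± 0.14 with fludarabine (adjusted p = 0.000168), −0.61 ± 0.14 with ibrutinib (adjusted p = 0.00693) and −1.52 ± 0.14 with idelalisib (adjusted p = 9.41e-06). EHEB gave ENO2 values of 116, 170.2 and 191.4 CPM with DMSO, 115, 119.6 and 121 with fludarabine, 102, 104 and 112 with ibrutinib and 101, 54.4 and 87 with idelalisib. Among the ENO2 values of EHEB, those with ibrutinib and idelalisib lay below DMSO and those with fludarabine overlapped it. The ENO2 log2 fold changes in EHEB were −0.42 ± 0.21 with fludarabine (adjusted p = 0.144, not called), −0.59 ± 0.21 with ibrutinib (adjusted p = 0.0773, not called) and −0.98 ± 0.21 with idelalisib (adjusted p = 0.00462). PGK1, the first ATP-making kinase of the pathway, fell in EHEB with all 3 drugs (−0.85, −1.13 and −1.44) and in MEC1 with fludarabine (−1.22), but was at 0.13 and −0.05 in MEC1 with ibrutinib and idelalisib (adjusted p = 0.0647 and 0.417). PKM, pyruvate kinase, varied widely between the DMSO libraries (1304, 1870.3 and 1319.8 CPM in EHEB) and was called lower in 3 comparisons. TPI1 was lower in 6 and PGAM1 in 7. Pseudogene entries named after TPI1 held 4.72% as many counts as TPI1 itself.

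At the pyruvate branch the lines went opposite ways with ibrutinib, where LDHA and PDK1 rose in MEC1 and fell in EHEB. Of the 6 genes, fludarabine lowered 4, 6 and 5 (MEC1, JVM2 and EHEB), ibrutinib 1, 1 and 5 and idelalisib 2, 4 and 6. Those raised were LDHA and PDK1 with ibrutinib and PDK1 with idelalisib in MEC1, and PDK3 with idelalisib in JVM2. The PDK3 call there was lost with no filter on low counts, in a joint fit and without any 1 of its 6 libraries. LDHA is the subunit of lactate dehydrogenase that favours lactate and a classical HIF and MYC target. LDHA in MEC1 measured 1311, 1306 and 1279 CPM in the DMSO libraries, against 652, 783 and 946 with fludarabine, 2149, 1541 and 2038 with ibrutinib and 1389, 1582 and 1756 with idelalisib. LDHA libraries of MEC1 with fludarabine lay below DMSO and those with ibrutinib and idelalisib lay above it. The LDHA log2 fold changes in MEC1 were −0.71 ± 0.15 with fludarabine (adjusted p = 0.00227), 0.56 ± 0.15 with ibrutinib (adjusted p = 0.00868) and 0.28 ± 0.15 with idelalisib (adjusted p = 0.127, not called). In JVM2, LDHA stood at 598, 648 and 669.8 CPM in vehicle, 229, 235 and 170.1 with fludarabine, 642, 618 and 547 with ibrutinib and 322, 288.1 and 224 with idelalisib. For LDHA in JVM2, libraries with fludarabine and idelalisib lay below DMSO and those with ibrutinib overlapped it. The LDHA log2 fold changes in JVM2 were −1.60 ± 0.15 with fludarabine (adjusted p = 5.61e-06), −0.08 ± 0.14 with ibrutinib (adjusted p = 0.721, not called) and −1.20 ± 0.14 with idelalisib (adjusted p = 6.04e-05). EHEB gave LDHA values of 708, 714 and 719 CPM with DMSO, 256, 259 and 256 with fludarabine, 184.5, 203 and 213 with ibrutinib and 126, 113 and 101 with idelalisib. No LDHA library of EHEB with a drug reached the DMSO range, all being lower. The LDHA log2 fold changes in EHEB were −1.47 ± 0.08 with fludarabine (adjusted p = 1.01e-07), −1.83 ± 0.08 with ibrutinib (adjusted p = 3.76e-07) and −2.65 ± 0.08 with idelalisib (adjusted p = 1.03e-08). In EHEB the 3 drugs did not overlap one another in LDHA, and idelalisib left 15.9% of the DMSO level. The higher LDHA level in MEC1 with idelalisib was not called. The difference was called in a fit of the 6 libraries alone and with a stricter filter on low counts. The LDHA effect differed between lines with each drug (interaction adjusted p = 0.000423, 5.99e-08 and 8.02e-09 in the order fludarabine, ibrutinib, idelalisib).

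LDHB, the subunit that favours pyruvate, fell in all 9 comparisons. LDHB in MEC1 measured 843, 814 and 862 CPM in the DMSO libraries, against 431, 373 and 430.1 with fludarabine, 661, 619 and 662 with ibrutinib and 609.6, 579 and 587 with idelalisib. All treated LDHB libraries of MEC1 lay below the vehicle range. The LDHB log2 fold changes in MEC1 were −1.03 ± 0.06 with fludarabine (adjusted p = 4.77e-07), −0.38 ± 0.06 with ibrutinib (adjusted p = 0.0005) and −0.50 ± 0.06 with idelalisib (adjusted p = 4.11e-05). In JVM2, LDHB stood at 699, 725 and 690.2 CPM in vehicle, 398, 407 and 343 with fludarabine, 621, 598 and 599 with ibrutinib and 345, 377 and 365 with idelalisib. LDHB thus lay below every DMSO library of JVM2 with each drug. The LDHB log2 fold changes in JVM2 were −0.88 ± 0.06 with fludarabine (adjusted p = 7.53e-07), −0.22 ± 0.06 with ibrutinib (adjusted p = 0.0217) and −0.96 ± 0.06 with idelalisib (adjusted p = 6.55e-07). EHEB gave LDHB values of 604, 599 and 581 CPM with DMSO, 429, 425 and 429 with fludarabine, 480.1, 459 and 507 with ibrutinib and 382, 364 and 339 with idelalisib. No LDHB library of EHEB with a drug reached the DMSO range, all being lower. The LDHB log2 fold changes in EHEB were −0.48 ± 0.05 with fludarabine (adjusted p = 2.66e-05), −0.30 ± 0.05 with ibrutinib (adjusted p = 0.00203) and −0.72 ± 0.05 with idelalisib (adjusted p = 1.89e-06). With ibrutinib in JVM2 the LDHB call was lost under library-size scaling (adjusted p = 0.0603) and when the second DMSO library or the second or the third ibrutinib library was left out. LDHA made up 43.4% ± 0.955 of the LDHA and LDHB sum per kb in DMSO-treated MEC1 (mean ± SD, n = 3) and 59.1% ± 3.42 with ibrutinib, whereas in EHEB the share went from 37.3% ± 0.644 to 22.9% ± 0.247 with fludarabine, 17.0% ± 1.01 with ibrutinib and 13.4% ± 0.606 for idelalisib. The JVM2 share was 31.0% ± 1.37 with DMSO and 21.4% ± 1.43 with fludarabine. In the share, none of these drug groups overlapped DMSO. With canonical transcript lengths the EHEB shares were 41.1% with DMSO and 15.4% with idelalisib.

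SLC16A3 is the monocarboxylate transporter that exports lactate from glycolytic cells. SLC16A3 in MEC1 measured 136, 135.03 and 143.1 CPM in the DMSO libraries, against 61.1, 50.1 and 58.8 with fludarabine, 103, 128 and 98.4 with ibrutinib and 138, 108 and 156 with idelalisib. SLC16A3 libraries of MEC1 with fludarabine and ibrutinib lay below DMSO and those with idelalisib overlapped it. The SLC16A3 log2 fold changes in MEC1 were −1.29 ± 0.14 with fludarabine (adjusted p = 2.16e-05), −0.33 ± 0.13 with ibrutinib (adjusted p = 0.0631, not called) and −0.05 ± 0.13 with idelalisib (adjusted p = 0.791, not called). In JVM2, SLC16A3 stood at 81.3, 70.3 and 96 CPM in vehicle, 50.7, 46.9 and 36 with fludarabine, 104, 64.9 and 85.2 with ibrutinib and 52.0, 41.5 and 34.9 with idelalisib. For SLC16A3 in JVM2, libraries with fludarabine and idelalisib lay below DMSO and those with ibrutinib overlapped it. The SLC16A3 log2 fold changes in JVM2 were −0.89 ± 0.20 with fludarabine (adjusted p = 0.00392), 0.04 ± 0.20 with ibrutinib (adjusted p = 0.927, not called) and −0.95 ± 0.20 with idelalisib (adjusted p = 0.00299). EHEB gave SLC16A3 values of 44.9, 56.7 and 72.5 CPM with DMSO, 9.49, 9.42 and 9.0 with fludarabine, 13.3, 13.3 and 14.3 with ibrutinib and 17.3, 17.8 and 19.1 with idelalisib. No SLC16A3 library of EHEB with a drug reached the DMSO range, all being lower. The SLC16A3 log2 fold changes in EHEB were −2.64 ± 0.15 with fludarabine (adjusted p = 1.79e-07), −2.09 ± 0.14 with ibrutinib (adjusted p = 5.73e-06) and −1.68 ± 0.14 with idelalisib (adjusted p = 5.47e-06). The order of the SLC16A3 levels in EHEB differed from that of LDHA, since fludarabine gave the lowest level and idelalisib the highest of the 3 drugs. SLC16A1, the more general transporter, was called lower in 3 comparisons (JVM2 with fludarabine and idelalisib, EHEB with idelalisib, −0.47 to −0.65). Its share of the pair, per kb, went from 69.7% ± 6.13 in DMSO-treated EHEB to 92.7% ± 0.647 with fludarabine.

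PDK1 phosphorylates pyruvate dehydrogenase and so keeps pyruvate out of the mitochondria, and it is a HIF target. Its values are given because the lines differed, which was seen before it was singled out. PDK1 in MEC1 measured 124, 133.99 and 132.6 CPM in the DMSO libraries, against 88.5, 93.5 and 87 with fludarabine, 201, 235 and 199 with ibrutinib and 243, 222 and 232.01 with idelalisib. PDK1 libraries of MEC1 with fludarabine lay below DMSO and those with ibrutinib and idelalisib lay above it. The PDK1 log2 fold changes in MEC1 were −0.54 ± 0.07 with fludarabine (adjusted p = 0.000116), 0.70 ± 0.07 with ibrutinib (adjusted p = 1.35e-05) and 0.83 ± 0.07 with idelalisib (adjusted p = 2.37e-06). In JVM2, PDK1 stood at 83.5, 87.4 and 88.7 CPM in vehicle, 33.0, 31.9 and 26.5 with fludarabine, 99.9, 95.2 and 88.2 with ibrutinib and 80.2, 74.2 and 57.9 with idelalisib. For PDK1 in JVM2, libraries with fludarabine and idelalisib lay below DMSO and those with ibrutinib overlapped it. The PDK1 log2 fold changes in JVM2 were −1.50 ± 0.12 with fludarabine (adjusted p = 1.76e-06), 0.13 ± 0.12 with ibrutinib (adjusted p = 0.474, not called) and −0.29 ± 0.12 with idelalisib (adjusted p = 0.0643, not called). EHEB gave PDK1 values of 84.5, 110.3 and 113 CPM with DMSO, 13.6, 18.2 and 22 with fludarabine, 45.4, 47.1 and 43.4 with ibrutinib and 51.5, 50.3 and 48.2 with idelalisib. No PDK1 library of EHEB with a drug reached the DMSO range, all being lower. The PDK1 log2 fold changes in EHEB were −2.51 ± 0.16 with fludarabine (adjusted p = 4.65e-07), −1.18 ± 0.15 with ibrutinib (adjusted p = 0.00034) and −1.04 ± 0.15 with idelalisib (adjusted p = 0.000339). PDK3, a related kinase, had log2 fold changes of −0.68 to 0.14. PDK1 made up 68.0% ± 1.65 of the PDK1 and PDK3 sum per kb in DMSO-treated MEC1 and 82.4% ± 1.57 with idelalisib, against 56.9% ± 2.79 and 27.1% ± 5.39 in EHEB with DMSO and fludarabine. The level of this share depends on the length used (canonical 18.3% in DMSO-treated MEC1), while its order among these groups did not.

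**Figure D3:**
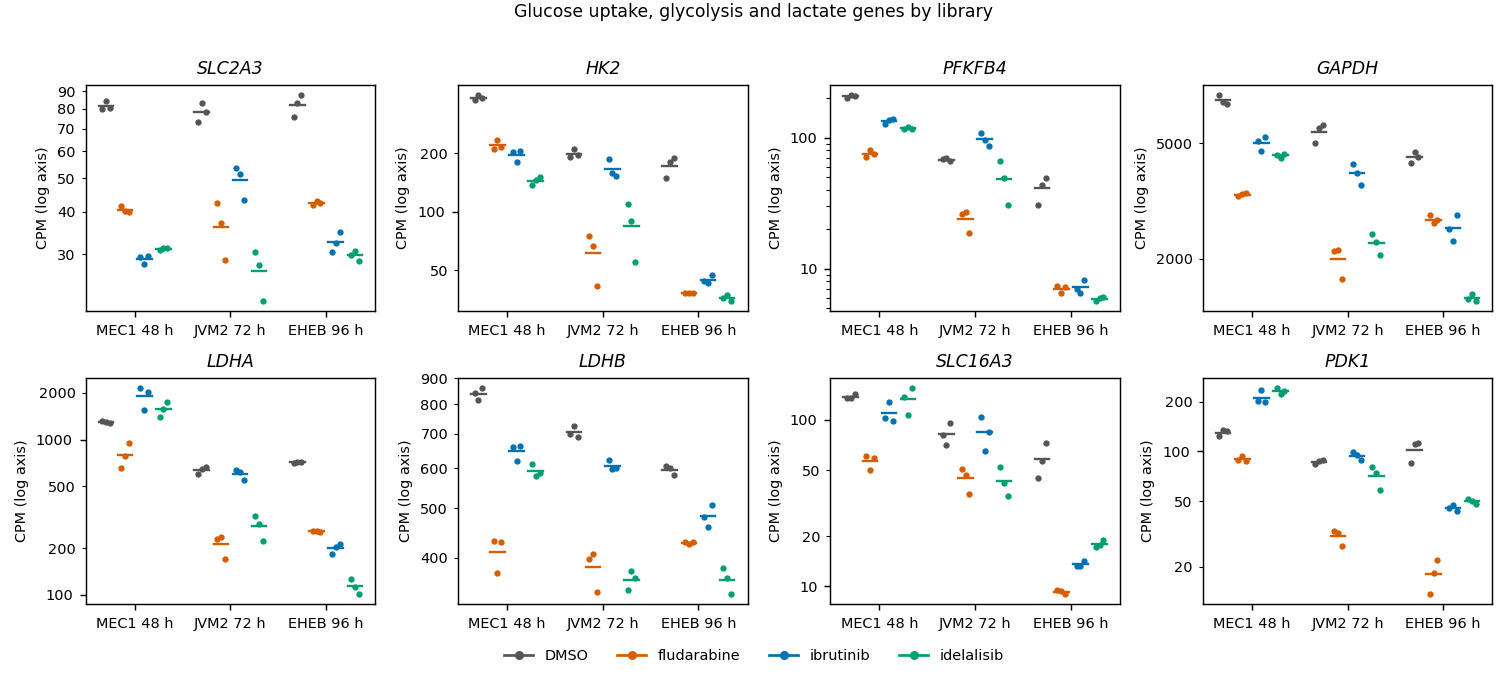
CPM (log axis) of 8 members of uptake, glycolysis and lactate handling in all 36 libraries, with 1 point per library, a bar at the mean of 3, and colours for DMSO and the 3 drugs. LDHA and PDK1 lie above DMSO in MEC1 with the kinase inhibitors and below it in EHEB, where the SLC16A3 points with fludarabine lie at 9.49, 9.42 and 9.0 CPM.

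**Figure D4:**
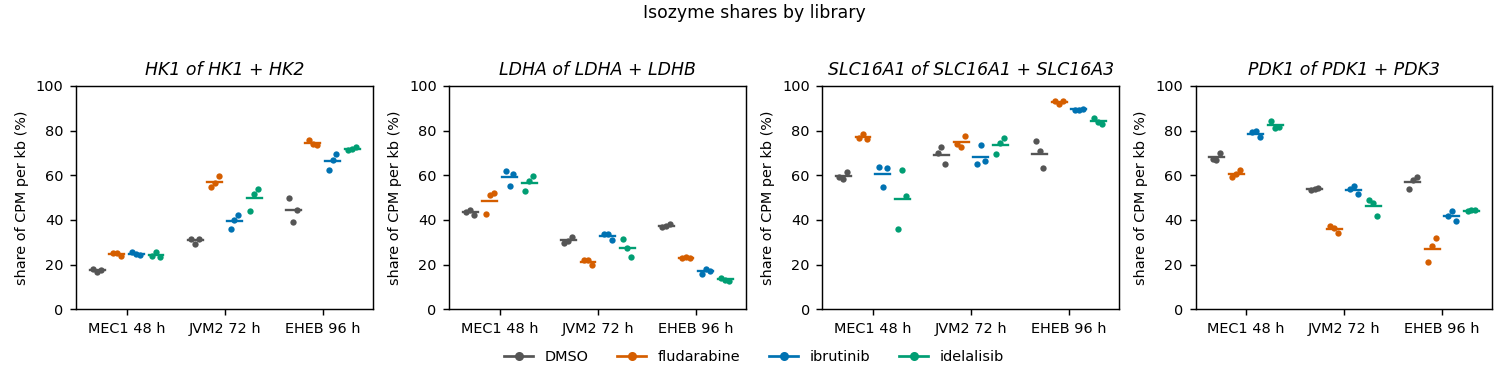
Share of 1 isozyme in the sum of its pair, from CPM per kb of union exon length (0 to 100%), per library with a bar at the mean of 3. The HK1 share in EHEB is 44.5% ± 5.45 with DMSO and 74.5% ± 1.06 with fludarabine, and the LDHA share with the kinase inhibitors lies above DMSO in MEC1 and below it in EHEB.

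HIF1A mRNA itself stayed within a narrow range, whereas EPAS1 fell with both kinase inhibitors in MEC1 and JVM2. HIF1A in MEC1 measured 168, 158 and 158 CPM in the DMSO libraries, against 142.01, 143.8 and 147 with fludarabine, 186.3, 191.3 and 199.8 with ibrutinib and 166, 173 and 172 with idelalisib. HIF1A libraries of MEC1 with fludarabine lay below DMSO, those with ibrutinib lay above DMSO and those with idelalisib overlapped it. The HIF1A log2 fold changes in MEC1 were −0.16 ± 0.05 with fludarabine (adjusted p = 0.0227), 0.26 ± 0.05 with ibrutinib (adjusted p = 0.00132) and 0.08 ± 0.05 with idelalisib (adjusted p = 0.204, not called). In JVM2, HIF1A stood at 254, 248 and 249.9 CPM in vehicle, 338, 329.7 and 306 with fludarabine, 240.3, 242 and 233.8 with ibrutinib and 233.97, 231.6 and 249.7 with idelalisib. For HIF1A in JVM2, libraries with ibrutinib lay below DMSO, those with fludarabine lay above DMSO and those with idelalisib overlapped it. The HIF1A log2 fold changes in JVM2 were 0.37 ± 0.05 with fludarabine (adjusted p = 5.58e-05), −0.07 ± 0.05 with ibrutinib (adjusted p = 0.295, not called) and −0.07 ± 0.05 with idelalisib (adjusted p = 0.231, not called). EHEB gave HIF1A values of 232.7, 205 and 205 CPM with DMSO, 255, 240.1 and 231 with fludarabine, 245, 221 and 226 with ibrutinib and 237, 224 and 213 with idelalisib. None of the drugs took HIF1A outside its DMSO range in EHEB in all libraries. The HIF1A log2 fold changes in EHEB were 0.18 ± 0.07 with fludarabine (adjusted p = 0.0624, not called), 0.11 ± 0.07 with ibrutinib (adjusted p = 0.321, not called) and 0.07 ± 0.07 with idelalisib (adjusted p = 0.486, not called). The 9 HIF1A log2 fold changes thus lay between −0.16 and 0.37. The small fall in MEC1 with fludarabine turned to 0.09 under library-size scaling (adjusted p = 0.208) and was lost under a stricter filter, in a joint fit, and without the first DMSO library or the first or the second fludarabine library.

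EPAS1 in MEC1 was at 39, 39.1 and 44.6 CPM with DMSO, 54.9, 59.0 and 54.7 with fludarabine, 15.9, 13.1 and 15.8 with ibrutinib and 9.40, 11.8 and 12.4 with idelalisib. The fludarabine libraries lay above all DMSO libraries, and those of both kinase inhibitors below. The EPAS1 log2 fold changes in MEC1 were 0.46 ± 0.11 with fludarabine (adjusted p = 0.00598), −1.45 ± 0.11 with ibrutinib (adjusted p = 2.02e-06) and −1.87 ± 0.12 with idelalisib (adjusted p = 2.33e-07). JVM2 held far less EPAS1, 4.29, 5.29 and 4.61 CPM with DMSO, 6.85, 3.97 and 4.97 with fludarabine, 1.24, 1.24 and 1.85 with ibrutinib and 1.91, 1.59 and 1.32 with idelalisib. The EPAS1 log2 fold changes in JVM2 were 0.15 ± 0.23 with fludarabine (adjusted p = 0.614, not called), −1.71 ± 0.24 with ibrutinib (adjusted p = 0.000442) and −1.56 ± 0.24 with idelalisib (adjusted p = 0.000355). In JVM2 too the kinase inhibitor libraries lay below DMSO, whereas fludarabine overlapped it. EPAS1 was untested in EHEB, where no library exceeded 0.450 CPM. The rise in MEC1 with fludarabine was lost in a joint fit (adjusted p = 0.215). EGLN1, the main HIF prolyl hydroxylase and itself a HIF target, was lower with all 3 drugs in MEC1 and EHEB and in JVM2 with fludarabine, from −0.29 to −1.43. EGLN3 in EHEB measured 64.5, 77.3 and 55.8 CPM with DMSO, 19.3, 25.8 and 24.1 with ibrutinib and 19.2, 18.4 and 20 with idelalisib (−1.51, adjusted p = 0.000127, and −1.78, adjusted p = 1.52e-05), with no overlap. Fludarabine was called lower there too, but its EGLN3 libraries (38.8 to 57.0 CPM) overlapped DMSO. In JVM2 with ibrutinib EGLN3 went the other way, at 3.62 to 5.80 CPM against 2.19 to 2.58 with DMSO (0.98, not called). VHL, the ubiquitin ligase subunit that recognises HIF, was called once, in JVM2 with fludarabine (0.79, adjusted p = 0.0256), where 1 library of 3 stood apart (26.6, 61.9 and 28.3 CPM, against 21.7, 23.5 and 22.3 with DMSO) and the call was lost with limma-voom (adjusted p = 0.058), in a fit of the 6 libraries alone, in a joint fit and without any 1 DMSO library.

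Among the 13 other HIF targets, the kinase inhibitors lowered the most in EHEB. Of the 13, fludarabine lowered 10, 11 and 8 (MEC1, JVM2 and EHEB), ibrutinib 6, 4 and 12 and idelalisib 7, 9 and 11. Raised were NDRG1 with fludarabine in each line, BHLHE40 in EHEB with fludarabine, ANKRD37 in MEC1 with both kinase inhibitors, BNIP3 in MEC1 and P4HA2 in EHEB with idelalisib. P4HA1, a collagen prolyl hydroxylase subunit, is the 1 member of this group lowered in all 9 comparisons. P4HA1 in MEC1 measured 424, 431 and 372 CPM in the DMSO libraries, against 208, 212 and 207 with fludarabine, 292, 304 and 315 with ibrutinib and 341, 332 and 333 with idelalisib. All treated P4HA1 libraries of MEC1 lay below the vehicle range. The P4HA1 log2 fold changes in MEC1 were −0.97 ± 0.06 with fludarabine (adjusted p = 5.22e-07), −0.43 ± 0.06 with ibrutinib (adjusted p = 0.000133) and −0.29 ± 0.06 with idelalisib (adjusted p = 0.00173). In JVM2, P4HA1 stood at 472, 504 and 513 CPM in vehicle, 104, 109 and 79.2 with fludarabine, 237.5, 212 and 194 with ibrutinib and 154, 132 and 110.3 with idelalisib. P4HA1 thus lay below every DMSO library of JVM2 with each drug. The P4HA1 log2 fold changes in JVM2 were −2.35 ± 0.14 with fludarabine (adjusted p = 2.30e-07), −1.21 ± 0.14 with ibrutinib (adjusted p = 0.000106) and −1.91 ± 0.14 with idelalisib (adjusted p = 1.68e-06). EHEB gave P4HA1 values of 129, 154 and 154 CPM with DMSO, 68.5, 67.0 and 58.4 with fludarabine, 60, 54.1 and 56.9 with ibrutinib and 64.0, 60.1 and 62.9 with idelalisib. No P4HA1 library of EHEB with a drug reached the DMSO range, all being lower. The P4HA1 log2 fold changes in EHEB were −1.17 ± 0.08 with fludarabine (adjusted p = 1.16e-06), −1.35 ± 0.08 with ibrutinib (adjusted p = 4.48e-06) and −1.22 ± 0.08 with idelalisib (adjusted p = 1.43e-06). The size of the P4HA1 fall differed between lines with each drug (interaction adjusted p 7.28e-07 to 5.05e-05). The sister gene P4HA2 went the other way in EHEB with idelalisib, from 10.5, 12 and 12.5 to 30.5, 29.5 and 27.7 CPM (1.33, adjusted p = 1.51e-06), while fludarabine and ibrutinib in EHEB gave 0.23 and 0.12, neither called.

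CA9 was all but lost in EHEB with every drug. Its counts were 189, 197 and 244 in the DMSO libraries, 0, 3 and 0 with fludarabine, and 0 in all 6 libraries with ibrutinib or idelalisib. Against a floor of 3 counts over the group, CA9 was at least 201-fold lower with ibrutinib and at least 175-fold lower with idelalisib, and with fludarabine, where 3 counts remained in all, the ratio was 164-fold (exact 95% interval 56 to 799, counting error only). In JVM2 CA9 was at 1.91, 3.40 and 1.57 CPM with DMSO, 0, 0.0868 and 0 (4 counts in all) with fludarabine, 2.14, 1.24 and 1.60 with ibrutinib and 0.239, 0.604 and 0.330 after idelalisib. Fludarabine was 76.8-fold lower there (interval 29.7 to 284, too narrow for the same reason). Idelalisib had a log2 fold change of −2.54 (adjusted p = 0.0043) and ibrutinib overlapped DMSO. In MEC1 CA9 had at most 12 counts in a library, and no difference was called at this depth. The strand of the reads is not given in the sources used here, and ARHGEF39 overlaps CA9 on the other strand.

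VEGFA, the angiogenic growth factor, fell in most comparisons, with its largest falls in EHEB. VEGFA in MEC1 measured 71.1, 50.1 and 66.4 CPM in the DMSO libraries, against 25.0, 41.0 and 39.8 with fludarabine, 47.7, 48.6 and 44.3 with ibrutinib and 39.3, 43.8 and 41.0 with idelalisib. All treated VEGFA libraries of MEC1 lay below the vehicle range. The VEGFA log2 fold changes in MEC1 were −0.82 ± 0.17 with fludarabine (adjusted p = 0.00263), −0.42 ± 0.17 with ibrutinib (adjusted p = 0.0679, not called) and −0.60 ± 0.17 with idelalisib (adjusted p = 0.0125). In JVM2, VEGFA stood at 62.4, 72.3 and 73.2 CPM in vehicle, 47.6, 51.1 and 49.6 with fludarabine, 66.4, 66.8 and 61.5 with ibrutinib and 49.9, 47 and 39.8 with idelalisib. For VEGFA in JVM2, libraries with fludarabine and idelalisib lay below DMSO and those with ibrutinib overlapped it. The VEGFA log2 fold changes in JVM2 were −0.49 ± 0.09 with fludarabine (adjusted p = 0.000947), −0.09 ± 0.09 with ibrutinib (adjusted p = 0.482, not called) and −0.61 ± 0.09 with idelalisib (adjusted p = 0.00025). EHEB gave VEGFA values of 46.8, 55 and 65.5 CPM with DMSO, 27.4, 45.4 and 47.9 with fludarabine, 21.9, 19 and 18.9 with ibrutinib and 8.03, 13.8 and 9.66 with idelalisib. Among the VEGFA values of EHEB, those with ibrutinib and idelalisib lay below DMSO and those with fludarabine overlapped it. The VEGFA log2 fold changes in EHEB were −0.47 ± 0.23 with fludarabine (adjusted p = 0.132, not called), −1.49 ± 0.23 with ibrutinib (adjusted p = 0.0012) and −2.41 ± 0.24 with idelalisib (adjusted p = 2.13e-05). VEGFA in EHEB with idelalisib was at 18.9% of DMSO, and its libraries lay below those of ibrutinib. The MEC1 call with idelalisib was lost without the first DMSO library. The ibrutinib and idelalisib effects differed between lines (interaction adjusted p = 6.48e-05 and 2.78e-05).

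ADM encodes adrenomedullin, a vasoactive peptide that cells raise in hypoxia, and was expressed at a low level. ADM in MEC1 measured 1.34, 1.45 and 1.58 CPM in the DMSO libraries, against 1.71, 1.57 and 1.36 with fludarabine, 0.720, 0.286 and 0.849 with ibrutinib and 0.178, 0.639 and 0.938 with idelalisib. ADM libraries of MEC1 with ibrutinib and idelalisib lay below DMSO and those with fludarabine overlapped it. The ADM log2 fold changes in MEC1 were 0.09 ± 0.48 with fludarabine (adjusted p = 0.901, not called), −1.23 ± 0.49 with ibrutinib (adjusted p = 0.0593, not called) and −1.30 ± 0.50 with idelalisib (adjusted p = 0.0445). In JVM2, ADM stood at 3.56, 4.90 and 4.57 CPM in vehicle, 5.91, 4.10 and 3.88 with fludarabine, 2.37, 1.89 and 2.33 with ibrutinib and 1.22, 1.62 and 0.660 with idelalisib. For ADM in JVM2, libraries with ibrutinib and idelalisib lay below DMSO and those with fludarabine overlapped it. The ADM log2 fold changes in JVM2 were 0.09 ± 0.28 with fludarabine (adjusted p = 0.812, not called), −0.98 ± 0.29 with ibrutinib (adjusted p = 0.0252) and −1.91 ± 0.30 with idelalisib (adjusted p = 0.000392). EHEB gave ADM values of 1.01, 0.870 and 1.40 CPM with DMSO, 1.5, 0.987 and 1.3 with fludarabine, 0.292, 0.274 and 0.480 with ibrutinib and 0.282, 0.437 and 0.191 with idelalisib. Among the ADM values of EHEB, those with ibrutinib and idelalisib lay below DMSO and those with fludarabine overlapped it. The ADM log2 fold changes in EHEB were 0.20 ± 0.35 with fludarabine (adjusted p = 0.706, not called), −1.63 ± 0.38 with ibrutinib (adjusted p = 0.0112) and −1.82 ± 0.38 with idelalisib (adjusted p = 0.00391). ADM was thus called lower in 5 of the 6 kinase inhibitor comparisons and was not called with fludarabine in any line. Its calls in MEC1 with idelalisib and in JVM2 with ibrutinib were lost when any of 5 libraries was left out in turn.

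BHLHE40, a circadian and hypoxia-induced repressor that antigen receptor signalling also raises, fell with both kinase inhibitors in all 3 lines. BHLHE40 in MEC1 measured 432, 445 and 411 CPM in the DMSO libraries, against 258, 280.9 and 256 with fludarabine, 129, 123 and 127 with ibrutinib and 87.7, 110.3 and 104 with idelalisib. All treated BHLHE40 libraries of MEC1 lay below the vehicle range. The BHLHE40 log2 fold changes in MEC1 were −0.70 ± 0.08 with fludarabine (adjusted p = 3.48e-05), −1.77 ± 0.08 with ibrutinib (adjusted p = 5.57e-08) and −2.09 ± 0.08 with idelalisib (adjusted p = 2.03e-08). In JVM2, BHLHE40 stood at 404, 451 and 457 CPM in vehicle, 328, 317 and 308 with fludarabine, 343, 319 and 297 with ibrutinib and 194, 184.7 and 154 with idelalisib. BHLHE40 thus lay below every DMSO library of JVM2 with each drug. The BHLHE40 log2 fold changes in JVM2 were −0.46 ± 0.09 with fludarabine (adjusted p = 0.00106), −0.45 ± 0.09 with ibrutinib (adjusted p = 0.00251) and −1.30 ± 0.09 with idelalisib (adjusted p = 8.07e-07). EHEB gave BHLHE40 values of 190.8, 215 and 219 CPM with DMSO, 275, 280.3 and 275 with fludarabine, 107, 96 and 109.9 with ibrutinib and 78.1, 80.3 and 78.8 with idelalisib. Among the BHLHE40 values of EHEB, those with ibrutinib and idelalisib lay below DMSO and those with fludarabine lay above it. The BHLHE40 log2 fold changes in EHEB were 0.41 ± 0.06 with fludarabine (adjusted p = 0.000367), −1.0 ± 0.06 with ibrutinib (adjusted p = 4.54e-06) and −1.40 ± 0.06 with idelalisib (adjusted p = 9.48e-08). Fludarabine lowered BHLHE40 in MEC1 and JVM2 and raised it in EHEB, and the effect differed between lines (interaction adjusted p = 3.48e-07).

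ANKRD37, a small ankyrin protein and strong HIF target, had the same calls as PDK1 in all 9 comparisons. ANKRD37 in MEC1 measured 49.1, 52.5 and 65.9 CPM in the DMSO libraries, against 28.2, 24.2 and 27.4 with fludarabine, 86.2, 95.4 and 86.7 with ibrutinib and 110.3, 93 and 104 with idelalisib. ANKRD37 libraries of MEC1 with fludarabine lay below DMSO and those with ibrutinib and idelalisib lay above it. The ANKRD37 log2 fold changes in MEC1 were −1.07 ± 0.11 with fludarabine (adjusted p = 2.08e-05), 0.68 ± 0.11 with ibrutinib (adjusted p = 0.000432) and 0.88 ± 0.11 with idelalisib (adjusted p = 4.76e-05). In JVM2, ANKRD37 stood at 27.3, 29.1 and 29.7 CPM in vehicle, 14.3, 14.8 and 10.4 with fludarabine, 36.9, 41.0 and 35.1 with ibrutinib and 41.2, 35.8 and 29.5 with idelalisib. For ANKRD37 in JVM2, libraries with fludarabine lay below DMSO, those with ibrutinib lay above DMSO and those with idelalisib overlapped it. The ANKRD37 log2 fold changes in JVM2 were −1.12 ± 0.15 with fludarabine (adjusted p = 8.29e-05), 0.39 ± 0.14 with ibrutinib (adjusted p = 0.0638, not called) and 0.31 ± 0.14 with idelalisib (adjusted p = 0.109, not called). EHEB gave ANKRD37 values of 16.0, 21.8 and 24.3 CPM with DMSO, 7.70, 6.85 and 6.80 with fludarabine, 9.59, 10.6 and 9.76 with ibrutinib and 10.7, 10.9 and 10.3 with idelalisib. No ANKRD37 library of EHEB with a drug reached the DMSO range, all being lower. The ANKRD37 log2 fold changes in EHEB were −1.54 ± 0.14 with fludarabine (adjusted p = 6.47e-06), −1.05 ± 0.14 with ibrutinib (adjusted p = 0.000342) and −0.96 ± 0.14 with idelalisib (adjusted p = 0.000269). BNIP3 in EHEB went from 82.9, 107 and 107 CPM to 36.7, 35.2 and 31.1 with fludarabine, 38, 34.5 and 32.0 with ibrutinib and 36.2, 35.1 and 32.0 with idelalisib, a nearly equal fall (−1.53, −1.51 and −1.52). Its relative BNIP3L fell there by 1.68 to 1.81. In MEC1 with the kinase inhibitors BNIP3 was at 0.01 and 0.13 and BNIP3L at 0.09 and 0.14, of which only BNIP3 with idelalisib was called (adjusted p = 0.043), a call lost under library-size scaling and without any 1 of 5 of its 6 libraries.

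NDRG1 was the 1 member raised by fludarabine in all 3 lines. MEC1 held 2.58, 4.21 and 3.86 CPM of NDRG1 with DMSO and 5.39, 7.32 and 4.70 with fludarabine (0.71 ± 0.23, adjusted p = 0.0271). JVM2 held 7.41, 8.71 and 8.55 CPM of NDRG1 with DMSO and 15.3, 14.3 and 12.6 with fludarabine (0.77 ± 0.12, adjusted p = 0.000377). EHEB held 74.6, 79.2 and 75.9 CPM of NDRG1 with DMSO and 145, 151 and 146 with fludarabine (0.94 ± 0.07, adjusted p = 1.11e-06). The libraries did not overlap in any line, and a difference between lines was not shown (interaction adjusted p = 0.819). In MEC1 the call was lost without the first DMSO library or the second fludarabine library (adjusted p = 0.101 and 0.127) and in a fit of the 6 libraries alone. Ibrutinib lowered NDRG1 in MEC1 (−1.23) and EHEB (−0.61), and idelalisib was not called in any line. MIF, a cytokine and HIF target, fell in 7 comparisons, by up to 1.89 in EHEB with idelalisib. KDM3A, a histone demethylase, fell in 8 of 9. GYS1, glycogen synthase, also fell in 8 of 9.

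**Figure D5:**
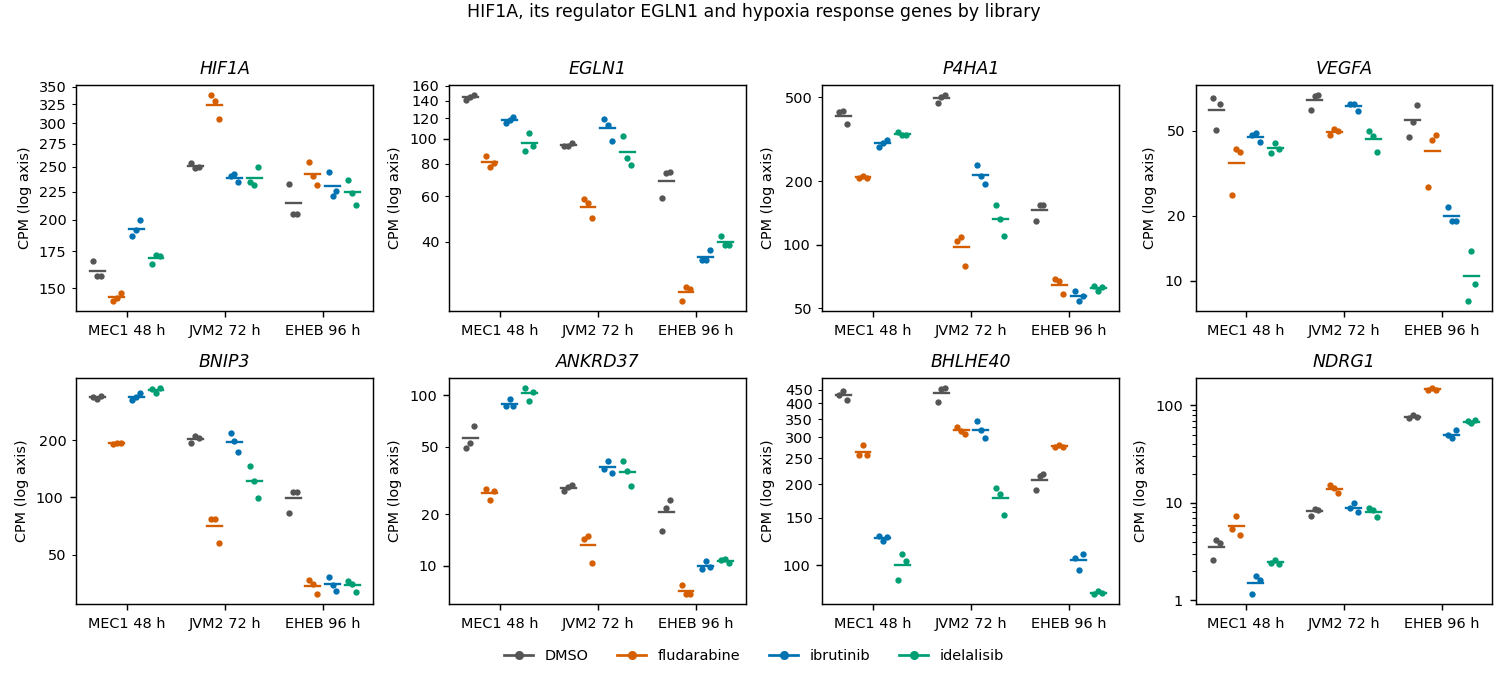
CPM (log axis) of HIF1A, EGLN1 and 6 hypoxia response genes in all 36 libraries, 1 point per library with a bar at the mean of 3. HIF1A stays within a narrow band, whereas BNIP3 and P4HA1 fall with every drug in EHEB and NDRG1 lies above DMSO with fludarabine in each line.

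Idelalisib and ibrutinib, which act on the same receptor pathway, were compared directly within the library series they share, at their single doses of 10 and 5 µM. Among called members most were lower with idelalisib, and only in JVM2 did these make up most of the members. In JVM2 29 of 43 members were lower and 0 higher (all genes 10.5% lower and 8.21% higher), with a median of −0.62. In MEC1 18 were lower and 1 higher of 42 (all genes 9.37% and 6.01%), median −0.18, and in EHEB 17 and 3 of 42 (all genes 9.09% and 6.77%), median −0.24. In JVM2 all 7 triose genes and LDHA (−1.12 ± 0.14, adjusted p = 0.000413), SLC2A3 (−0.89 ± 0.15, adjusted p = 0.00248) and HK2 (−0.96 ± 0.24, adjusted p = 0.0196) were lower with idelalisib. The HK2 call there was lost without the first ibrutinib library, and 22 to 29 members were called when each library was left out in turn. The MEC1 calls were 9 in a fit of its 6 libraries alone, and 12 without the third ibrutinib or the first idelalisib library. In MEC1 all 10 hexose genes were lower and LDHA was not called (−0.28 ± 0.15, adjusted p = 0.254). MIF, the 1 member higher, had 0.24 ± 0.06, adjusted p = 0.0217. Under library-size scaling the median of all genes in MEC1 moved by −0.17, the calls went from 39.1% to 11.3% higher, and the members were 0 higher and 24 lower, so MIF lost its call. HIF1A was lower in MEC1 (−0.18 ± 0.05, adjusted p = 0.033), a call lost with no filter, in a fit of the 6 libraries alone and without any 1 of 3 libraries. In EHEB LDHA (−0.82 ± 0.07, adjusted p = 4.25e-05) and VEGFA (−0.92 ± 0.23, adjusted p = 0.0217) were lower, whereas P4HA2 (1.21 ± 0.09, adjusted p = 1.44e-05), NDRG1 (0.44 ± 0.07, adjusted p = 0.00127) and KDM3A (0.31 ± 0.09, adjusted p = 0.0326) were higher. The HIF1A difference did not pass in JVM2 (0.00 ± 0.05, adjusted p = 0.986) or EHEB (−0.04 ± 0.07, adjusted p = 0.785).

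Whether a drug effect differed between the lines was tested as the interaction of line and drug, a test that also carries exposure time. It was called in 27 of 43 members for fludarabine (all genes 39.1%), 33 for ibrutinib (33.6%) and 31 for idelalisib (45.7%). The members with the smallest interaction p were PGK1 for idelalisib (adjusted p = 6.28e-09) and for ibrutinib (adjusted p = 1.04e-08) and BHLHE40 for fludarabine (3.48e-07). SLC2A3 was not shown to differ between lines for fludarabine (adjusted p = 0.695) or idelalisib (0.834), and did for ibrutinib (8.98e-05). ADM, low in all lines, was not called for any drug (0.528 to 1).

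Other genes of the same pathways, outside the 43, were counted in the same way, beside the shares of all genes given above. Of 23 further hypoxia genes, such as the kinase AK4 and the iron gene HMOX1, fludarabine gave 4 higher and 11 lower of 21 in MEC1, 4 higher and 9 lower of 20 in JVM2, 4 higher and 8 lower of 21 in EHEB, ibrutinib 2 higher and 11 lower of 21 in MEC1, 7 higher and 1 lower of 20 in JVM2, 2 higher and 11 lower of 21 in EHEB, and idelalisib 2 higher and 12 lower of 21 in MEC1, 7 higher and 7 lower of 20 in JVM2, 3 higher and 11 lower of 21 in EHEB. Their median log2 fold change was 0.30 in JVM2 with ibrutinib and −0.54 in EHEB with idelalisib. Of 12 genes that bring pyruvate into the mitochondria, such as MPC1 and PDHA1, 0 to 4 were lower and 1 to 3 higher per comparison, with medians of −0.11 to 0.16. Among 7 pentose phosphate genes 0 to 4 were lower and 0 to 2 higher (medians −0.66 to 0.23), among 20 other glycolytic isozymes, of which 11 to 14 were tested, 2 to 6 and 0 to 5 (medians −0.37 to 0.27), and among 6 glucose-sensing regulators such as TXNIP and MYC 1 to 2 and 0 to 2 (medians −0.35 to 0.00). PGM1 stands in 2 of these lists. MYC varied widely between the DMSO libraries of MEC1 (11.2 to 211 CPM) and JVM2 (9.67 to 106), less so in EHEB (25.6 to 38.6). A change of MYC with a drug therefore cannot be read in MEC1 and JVM2.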

How the data were processed

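RNA of 3 established leukaemia cell lines was sequenced in 36 libraries, 12 per line, after depletion of ribosomal RNA. Per the methods and labels, the authors trimmed reads with Trimmomatic, aligned them to GRCh38 with HISAT2 2.1 and deposited estimated counts per gene symbol from StringTie 1.3.4, as whole numbers without normalisation. The sources used here do not give the annotation release, the strand or the read length. Low values pile up at multiples of 2.67, as counts computed back from coverage would, so they are not independent reads. Totals ranged from 26590705 to 53538925 counts, and the precision of low members is limited by this depth. Intervals and floors take each count as 1 independent read and so claim more precision than these counts have. They cover no spread between libraries. Of 37550 entries, 6020 were 0 throughout, and the entry with no symbol (0.00384% of counts) was left out.

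Groups followed the labels. Counts were fitted with edgeR 4.0.16 in R 4.3.3 (TMM, quasi-likelihood test, all 12 libraries of a line with 4 treatments and no block), after filterByExpr with a minimum count of 10 and a minimum total of 15. P values were adjusted by Benjamini-Hochberg over all genes tested (17516 in MEC1, 17508 in JVM2, 17748 in EHEB), and a member was called at an adjusted p under 0.05. Vehicle libraries of the 3 lines were fitted together, and interactions over the 18 libraries of DMSO and a drug. Levels compared between genes are CPM per kb of union exon length (GENCODE annotation of GRCh38). Alternatives were DESeq2 1.42.0, limma-voom (limma 3.58.1), scaling by library totals, no filter, a filter at a mean of 5 CPM, fits of 2 groups or of all 36 libraries, each library left out, and counts divided by 2.67, the last chosen after seeing the data. The fit was run on simulated independent counts in which few genes changed, as many up as down. Far more genes were called here and the counts look computed back from coverage, so that run gives no error rate for these data.

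The 43 members and all gene lists were chosen with earlier results of these data known. Full values are given for HIF1A, EPAS1, VEGFA, HK2, LDHA and LDHB, for the 2 called members with the largest change in each drug comparison whose average log2 CPM is at least 1 and whose libraries do not overlap DMSO, and for up to 5 members per drug that were called in 1 direction in all lines. Of the B-cell markers 3 are given singly, and 1 is not reported here. Marker lists of T, myeloid, fibroblast, erythroid and epithelial cells and 5 lists of other pathway genes were counted with no test of the list. Lower doses of the drugs, which the study's methods mention, were not analysed here.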

Additional observations from a re-analysis of the deposited data

Results flagged for a closer look

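The effect of a drug differed between the 3 lines, by the interaction of line and drug (quasi-likelihood test of edgeR, adjusted over all genes), in 27 members for fludarabine (all genes 39.1%), 33 for ibrutinib (33.6%) and 31 for idelalisib (45.7%). Among these, 12 effects were called higher in at least 1 line and lower in another. How often such opposite effects occur over all genes was not counted, so they are not shown to be more common among the members. A looser count took calls in both directions over any drug against DMSO in any line. It held 12 of the 43 members and 30.1% of all genes. Groups of 3 libraries were too small for a check for single libraries that stand apart.

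With fludarabine HIF1A was at −0.16 in MEC1 and 0.37 in JVM2, with 0.18 for EHEB (log2 fold change, interaction adjusted p = 3.34e-04), of which the EHEB value was not called. BHLHE40 was at −0.70, −0.46 and 0.41 in the order MEC1, JVM2, EHEB, also used for the values that follow (adjusted p = 3.48e-07).

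With ibrutinib the phosphofructokinases PFKL (−0.69, 0.32 and −0.45, adjusted p = 8.38e-06) and PFKP (−0.10, not called, 0.38 and −0.80, adjusted p = 7.55e-06) rose in JVM2 alone of the 3 lines. LDHA (0.56, −0.08, not called, and −1.83, adjusted p = 5.99e-08), PDK1 (0.70, 0.13, not called, and −1.18, adjusted p = 2.13e-07) and ANKRD37 (0.68, 0.39, not called, and −1.05, adjusted p = 8.49e-06) rose in MEC1 and fell in EHEB.

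With idelalisib PDK1 (0.83, −0.29, not called, and −1.04, adjusted p = 4.78e-07), ANKRD37 (0.88, 0.31, not called, and −0.96, adjusted p = 1.07e-05) and BNIP3 (0.13, −0.72 and −1.52, adjusted p = 3.58e-06) rose in MEC1 and fell in EHEB. PDK3 (−0.31, 0.14 and −0.28, adjusted p = 6.09e-04) rose in JVM2, and P4HA2 (−0.49, −0.16, not called, and 1.33, adjusted p = 3.18e-08) rose in EHEB. Against DMSO within a line, the rises of PDK3 in JVM2 and BNIP3 in MEC1 with idelalisib and of PFKP in JVM2 with ibrutinib, and the fall of HIF1A in MEC1 with fludarabine, lost their calls under some alternatives or without single libraries. None of the 12 interactions lost its call under any alternative or without any single library. What sets the lines apart, which also differ in p53 status and exposure time, was not tested.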

How the results depend on the processing

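No paired analysis was possible because the library numbers of the labels are not shared between groups. For 2 of the 18 counts of members called, an alternative moved the count by more than 1.5 times. A fit of the 6 libraries alone gave 22 called members instead of 13 for ibrutinib in JVM2, and 9 instead of 19 for idelalisib against ibrutinib in MEC1. Leaving out each library in turn gave 8 to 12 members in the first, lowest without the third ibrutinib library, and 12 to 19 in the second, lowest without the third ibrutinib or the first idelalisib library. The cause was not tested, beyond the smaller number of libraries. With each library left out, fludarabine against DMSO gave 31 to 34 calls in MEC1, 36 to 37 for JVM2 and 28 to 32 for EHEB, ibrutinib 24 to 25 in MEC1 and 31 to 35 in EHEB, and idelalisib 27 to 30, 24 to 30 and 37 to 38.

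For single members, 4583 values under alternatives kept direction and side of the threshold, 121 passed it anew, 83 lost it and 1 reversed, HIF1A in MEC1 with fludarabine, at 0.0906 with library totals in place of TMM. With single libraries left out the numbers were 3606, 43, 173 and 0. Counts computed back from coverage, 3 libraries per group and 1 dose per drug limit the precision, and members such as ADM and CA9 rest on few counts.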
